A study of Mus musculus with 6 samples.

Results

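The clock output factors are transcription factors and 1 enzyme that carry the hepatic circadian clock to its downstream genes: Dbp, Tef, Hlf, Nfil3, Noct and Bhlhe40. They were read through every probe set present on both array designs that the platform annotation gives to exactly 1 of these 6 symbols, of 12393 genes with such a probe set. This gave 10 probe sets of 22626 shared ones: 2 for Dbp, 3 for Tef, 2 for Hlf and 1 each for Nfil3, Noct and Bhlhe40. Of the 10, 8 passed the filter on low values, and the other 2 were both of Tef. Another probe set, annotated to Noct together with Sgip1 and Cog6, was left out by that rule.

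The data are Affymetrix liver arrays of C57BL/6J mice, an inbred strain, fed a high-fat diet for 2, 4 or 10 weeks or a control diet for the same times, with 1 array per diet and week and 6 in all. Mice had been assigned to the diets at random, and the same lobes of each liver were frozen. The sources used here do not give the sex, age or hour of death of the mice, nor if the RNA on an array came from a single animal or several. The week 4 arrays are of a larger design than those of weeks 2 and 10 and were scaled separately, so each high-fat array is set against the control array of its own week, and where arrays of all 3 weeks are set together, as in whether the diets overlap, the order also reflects the design and scaling of week 4.

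In mouse liver, Dbp, Tef and Hlf form the PAR bZIP family, activators that bind D-box elements and whose abundance, above all that of Dbp, swings widely over the day. Nfil3, a bZIP repressor also called E4BP4, binds the same elements and peaks when the activators are low. Dbp is driven through E-boxes by the CLOCK and BMAL1 heterodimer (BMAL1 is encoded by Arntl), while Nfil3 is repressed by the REV-ERB receptors, encoded by Nr1d1 and Nr1d2. Noct, or nocturnin, is a rhythmic phosphatase of NADP(H) linked to lipid handling, and Bhlhe40, or DEC1, is a basic helix-loop-helix repressor that competes at E-boxes.

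The promoter sequences of the members are shown because these factors are defined by the elements they bind and are driven through. RefSeq windows of 300 bases on GRCm38.p6, from 250 before to 50 after a transcript start, were found for 5 of the 6 genes, 6 windows in all with 2 for Tef. Both strands were searched for the E-box CACGTG, the D-box TTATGNAA, the cAMP response element TGACGTCA, the ROR and REV-ERB half-site TAGGTCA and the CCAAT box CCAAT. These motifs do not overlap each other in the stretches printed. Capitals mark the match named on each line, read on the strand of the gene.
Dbp, chr7:45704998-45705057, plus strand, CCAAT box: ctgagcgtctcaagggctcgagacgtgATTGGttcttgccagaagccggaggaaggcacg
Tef, first start, chr15:81802519-81802578, plus strand, E-box: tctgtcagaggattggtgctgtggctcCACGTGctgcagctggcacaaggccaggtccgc
Tef, second start, chr15:81811249-81811308, plus strand, E-box: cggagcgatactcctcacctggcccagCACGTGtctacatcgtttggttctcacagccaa
Hlf, chr11:90390918-90390977, minus strand, cAMP response element: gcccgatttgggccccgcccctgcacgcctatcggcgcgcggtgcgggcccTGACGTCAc
Noct, chr3:51224327-51224386, plus strand, D-box: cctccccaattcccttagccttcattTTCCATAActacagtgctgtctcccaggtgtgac
Nfil3, chr13:52981040-52981069, minus strand, ROR and REV-ERB half-site: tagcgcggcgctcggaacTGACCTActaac

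Both Tef windows hold an E-box, beginning 127 bases before the first start and 138 before the second, and 7.15% of all 32851 windows hold one. No other member window holds an E-box, that of Dbp included. Of the motifs searched, the Dbp window holds only the CCAAT box. The D-box match of Noct begins 94 bases before its start and 3.38% of all windows hold one. The cAMP response element of Hlf begins 9 bases before its start (1.79% of windows). The half-site of Nfil3 begins 12 bases before the start used for its window (2.61%). That start lies inside the gene's span, chr13:52967209-52982878, and is not the outermost start of Nfil3. The CCAAT box is common, in 37.41% of windows, and is present in 5 of the 6 windows of these genes. These are matches of letters within short windows and not measured binding.

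The first question was how the 3 PAR bZIP activators differed between the diets. Dbp had the largest mean difference of all 8846 genes tested. Its probe set 1418174_at had a normalised signal of 557.9, 542.4 and 1664.9 on the high-fat arrays of weeks 2, 4 and 10, against 130.5, 132.2 and 148.2 on the control arrays. All 3 control arrays lay under the floor of 155.3, the 40th percentile of all centred values, below which values were held at that level. The high-fat arrays all lay above it, so each difference is a lower bound: Dbp was at least 3.59-fold higher at week 2, at least 3.49-fold at week 4 and at least 10.7-fold at week 10.

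The other Dbp probe set, 1438211_s_at, gave the same direction each week. It had 739.8, 1096.1 and 927.9 on the high-fat arrays, against 22.4, 261.7 and 33.6 on the control arrays, of which only week 4 was above the floor. Its log2 differences were at least 2.25, 2.07 and at least 2.58. Every high-fat array was above every control array on both probe sets. In bulk liver RNA, fewer cells of a type and less RNA per cell cannot be told apart. As deposited, before any centring, 1438211_s_at read 549.5, 1640.5 and 686.144 on the high-fat arrays and 26.4, 370.1 and 24.5 on the control arrays. In the same values 1418174_at read 414.4, 811.8 and 1231.19 against 154.1, 187 and 108. Its week 2 bound rests on the centring: the log2 difference was 1.43 as deposited and at least 1.85 after centring.

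The mean log2 difference of Dbp over the weeks was at least 2.36 (standard error 0.31, 3 arrays per diet) on the probe set that was brighter before the floor. This did not pass the test across all genes (limma adjusted p = 0.0887). On 1438211_s_at it was at least 2.30 (standard error 0.22), which passed in the fit over all 14533 probe sets above the floor on at least 3 arrays (limma adjusted p = 0.0256). Its controls of weeks 2 and 10 were held at the floor, which narrows the spread behind that standard error. The log2 differences there were 2.25, 2.07 and 2.58 with the floor, against 5.05, 2.07 and 4.79 without it. In that fit 0.0138% of probe sets were called higher, namely this one and 1418213_at of the keratin gene Krt23. In the fit over genes 0.0113% were called higher and 0% lower, and none of the 6 members was among them.

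The call of Dbp therefore depends on which probe set stands for the gene, and also on the scaling and the weeks used. When the brighter one was chosen after the floor was set, an alternative added after the data were seen, 1438211_s_at stood for Dbp and passed (limma adjusted p = 0.00817). The mean of both also passed (limma adjusted p = 0.0165), and so did 1418174_at itself when any 1 of the 3 weeks was left out. Those fits without 1 week called 6 to 7 genes in all, against 1 in the main fit. Over the 13 alternatives the adjusted p of Dbp ran from 2.3e-06 to 0.9999, the mean log2 difference from 1.16 to 2.63, and the call was made in 6. The standard error is limma's, which moderates the spread of a gene's weekly differences (SD 0.92 for 1418174_at) by that of all genes. At 1418174_at the controls were held at the floor and add nothing to that SD. This probe set met the filter only through its 3 high-fat arrays. The other, 1438211_s_at, was above the floor on 3 high-fat arrays and 1 control array, so it too met the filter through the high-fat arrays. The p-values and calls of Dbp on either probe set, or on their mean, are therefore given as a description and not as support. Permuting the diets within the 3 weeks cannot give an exact two-sided p under 0.25.

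**Figure D1:**
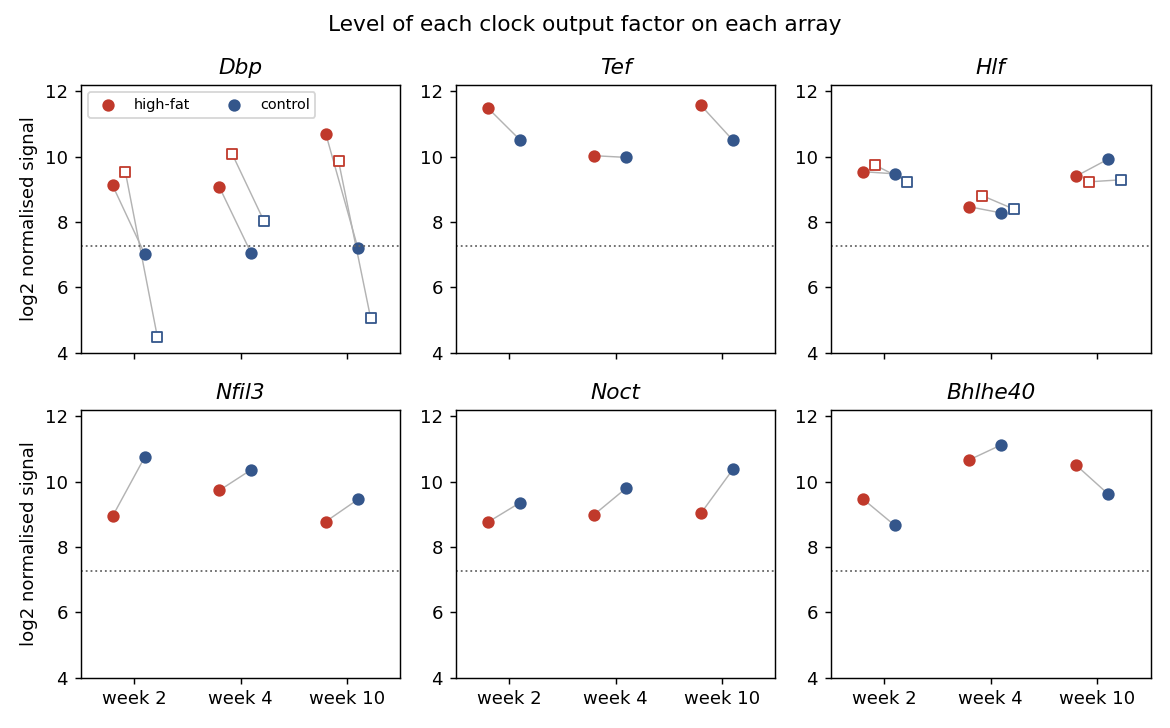
Log2 normalised signal of each clock output factor on each of the 6 arrays, high-fat in red and control in blue within each week, with grey lines joining the 2 arrays of a week. Filled circles are the probe set that stands for the gene, open squares the other probe set that passed the filter (Dbp and Hlf), and the dotted line is the floor at 7.28. The 3 control arrays of Dbp sit below the floor on the filled probe set, and Nfil3 and Noct are lower on the high-fat array at every week.

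Tef, another PAR bZIP activator, was higher with the high-fat diet at weeks 2 and 10 and nearly level at week 4. Its bright probe set 1424175_at had 2898.8, 1048.4 and 3054.3 on the high-fat arrays, against 1476.6, 1011.0 and 1457.6 on the control arrays. The log2 differences were 0.97, 0.05 and 1.07, with a mean of 0.70 (standard error 0.25, limma adjusted p = 0.995), so Tef did not pass the test. At week 10 Tef was 2.10-fold higher, past the 2-fold size that 3.88% of genes reached in that direction. Both other Tef probe sets failed the filter: 1438033_at was above the floor on 2 arrays, 1 per diet, with a log2 difference of -0.64 at week 2, and 1450184_s_at on none. With the mean of all 3 probe sets the Tef differences were 0.05, 0 and 0.93. The 0 of week 4 comes from the floor, since that mean lay under it on both arrays, and is not a measured lack of difference. The size at week 2 and the direction at week 4 thus rest on the bright probe set.

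Hlf, the third PAR bZIP activator, did not separate the diets. On 1434735_at it had 747.1, 354.8 and 677.1 on the high-fat arrays, against 713.3, 311.2 and 971.3 on the control arrays. Its log2 differences were 0.07, 0.19 and -0.52, and those of the other probe set, 1434736_at, were 0.49, 0.42 and -0.06. The mean was -0.09 on the first (standard error 0.23, limma adjusted p = 0.997) and 0.28 on the second, so the 2 probe sets differ in the sign of the mean while both were higher at weeks 2 and 4 and lower at week 10.

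Nfil3, the repressor at the same D-box elements, was lower with the high-fat diet. Its normalised signal was 492.6, 849.4 and 439.0 on the high-fat arrays, against 1716.7, 1319.0 and 701.7 on the control arrays. It was lower at each week, and the diets overlap only because the control array of week 10 lay below the high-fat array of week 4, across the 2 designs. The log2 differences were -1.80, -0.63 and -0.68, with a mean of -1.04 (standard error 0.27, limma adjusted p = 0.995). Nfil3 was 3.48-fold lower at week 2, when 1.58% of genes were at least 2-fold lower, and 0.0339% of genes were as far down.

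On the control diet Nfil3 was lower at week 10 than at week 2 by a log2 difference of -1.29, while on the high-fat diet the same difference was -0.17. These are single arrays of the smaller design and were not tested. Set against Nfil3, the diet difference of Dbp was larger by at least 3.65 on the log2 scale at week 2, at least 2.44 at week 4 and at least 4.10 at week 10. For Tef against Nfil3 it was larger by 2.77, 0.69 and 1.74.

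Noct was also lower with the high-fat diet at all 3 weeks. It had 432.0, 509.6 and 522.5 on the high-fat arrays, against 652.0, 893.5 and 1326.0 on the control arrays, and no high-fat array reached the lowest control array of either design. The log2 differences were -0.59, -0.81 and -1.34, with a mean of -0.92 (standard error 0.23, limma adjusted p = 0.995). At week 10 it was 2.54-fold lower, a size of at least 2-fold that 3.92% of genes reached in that direction. The control arrays differed by 1.02 on the log2 scale between weeks 10 and 2 and the high-fat arrays by 0.27, so the wider difference of week 10 went with a higher control array.

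Bhlhe40, the repressor at E-boxes, differed in sign between the weeks. It had 712.8, 1626.8 and 1459.9 on the high-fat arrays, against 405.5, 2234.2 and 791.4 on the control arrays. Its log2 differences were 0.81 and 0.88 at weeks 2 and 10, where the high-fat array was the higher, and -0.46 at week 4, where it was the lower. The mean was 0.41 (standard error 0.28, limma adjusted p = 0.995). Within the smaller design it was higher at week 10 than at week 2 on both diets, by 1.03 on the high-fat and 0.96 on the control diet.

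**Figure D2:**
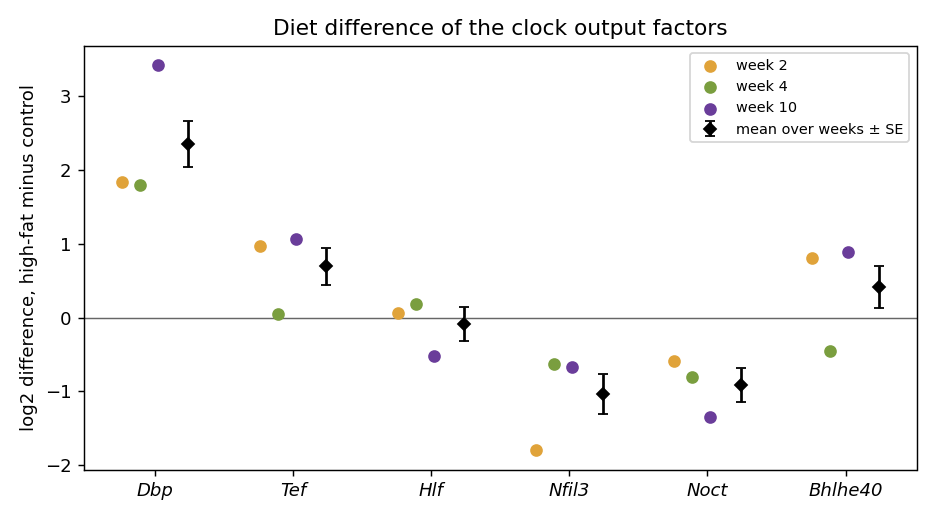
Log2 difference between the high-fat and the control array of the same week (coloured points) and its mean over the 3 weeks with the standard error from limma (black diamonds) for each clock output factor, on the probe set that stands for the gene. Dbp and Tef lie above 0 at all 3 weeks, Nfil3 and Noct below 0 at all 3, and Hlf and Bhlhe40 on both sides.

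Of the 6 member genes, Dbp and, on its bright probe set, Tef were higher at all 3 weeks, as were 8.16% of all genes tested, and Nfil3 and Noct were lower at all 3, as were 11.3%. The high-fat arrays lay wholly above the control arrays for Dbp, as for 1.53% of genes, and wholly below for Noct, as for 1.94%. At least 2-fold higher were Dbp at week 2 (1.21% of genes), Dbp at week 4 (0.701%), and Dbp and Tef at week 10. At least 2-fold lower were Nfil3 at week 2, none of the 6 at week 4 (0.904%), and Noct at week 10. An unadjusted limma p under 0.05 was reached by 4 members, namely Dbp, Tef, Nfil3 and Noct, and by 4.08% of all genes. These genes were chosen with earlier results of the same arrays known, so these counts describe them and do not support them.

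**Figure D3:**
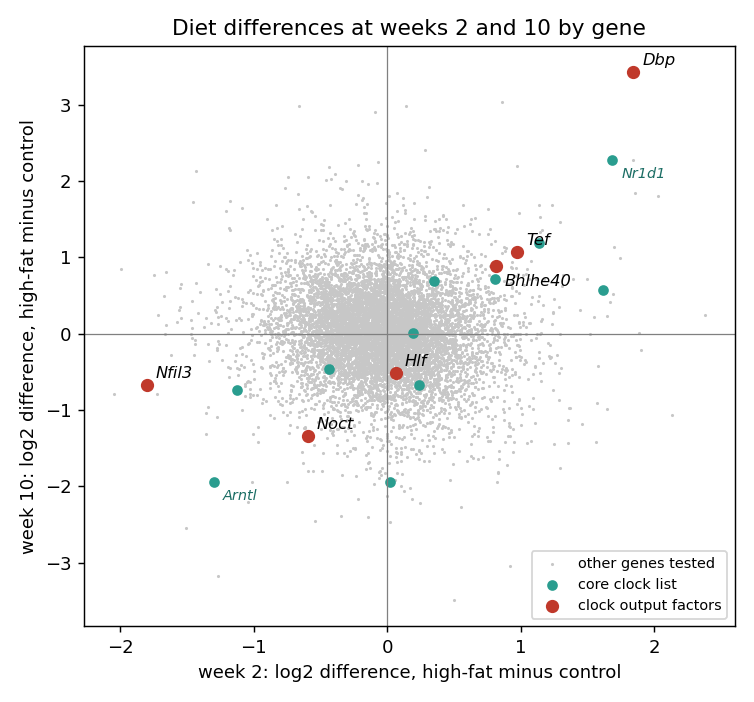
Log2 difference between high-fat and control at week 2 (x axis) and week 10 (y axis) for each of the 8846 genes tested, with the clock output factors in red and the core clock list in green. Dbp lies at the upper right edge with Nr1d1 below it, Tef and Bhlhe40 are higher at both weeks, and Nfil3, Noct and Arntl are lower at both.

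The core clock, from which these factors take their rhythm, was set beside them. Of 17 listed genes 11 were tested, and none was called over all genes by limma (6 had an unadjusted p under 0.05), with a median mean difference of 0.00 against -0.03 over all genes. Arntl, the activator behind the E-box, had log2 differences of -1.30, -0.71 and -1.94. Nr1d1, the REV-ERB alpha repressor, had 1.69, 0.00 and 2.27. Nr1d2, its paralog, had 1.14, 0.16 and 1.18, but -0.99, -0.35 and 1.03 on another probe set.

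The cryptochrome Cry2, a repressor of the activator pair, had a mean difference of 0.73, 1 control array being at the floor. Cry1, its relative, was at least 1.60-fold lower on average, with all 3 high-fat arrays at the floor. In all, 4 of the 11 were higher and 3 lower at all 3 weeks, as were 8.16% and 11.3% of all genes tested. Among those higher, Nr1d1 and Cry2 were almost level at week 4, with 0.0002 and 0.01. The period gene Per2 did not pass the filter, nor did Npas2 or Bhlhe41, and the remaining untested genes of the list were not analysed here.

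Genes reported as targets of the PAR bZIP factors or Nfil3 were set beside the factors next. Of 17 listed, 13 were tested and 0 were called by limma (2 had an unadjusted p under 0.05). None was higher and 5 were lower at all 3 weeks (8.16% and 11.3% of all genes tested), and the median mean difference was -0.31. Cyp2b10, a drug-metabolizing P450, had -1.72, -0.13 and -0.79. Cyp7a1, which catalyses the step that limits bile acid production, had -1.06, -0.83 and -0.68, and -2.19, -0.96 and -0.23 on another probe set.

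The hormone gene Fgf21 had -0.35, 0.86 and -2.39, Cyp2c50, another P450, a mean of -0.51, and the omega-hydroxylase Cyp4a14 a mean of -0.34. Alas1, the first enzyme of heme synthesis, and the nuclear receptor gene Nr1i3 had means of 0.07 and -0.04. Por, Cyp2a4, Cyp2a5 and Cyp4a10 were not analysed here.

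Among other rhythmic liver genes, 9 of 10 were tested, with a median of 0.02, and 0 were called by limma (4 had an unadjusted p under 0.05). Wee1, a cell cycle kinase gene under E-box control, was higher at all 3 weeks with 0.59, 0.77 and 0.47. Avpr1a, the vasopressin receptor of hepatocytes, and Insig2, a sterol sensor, were lower at all 3, with means of -0.48 and -0.53, although their other probe sets were not lower at every week. Upp2, a uridine phosphorylase gene, had 0.77, -0.63 and 0.89. Rgs16, a regulator of G protein signalling, had a mean of 0.67, with 3 probe sets that disagreed at week 4.

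Genes of the fasting and glucocorticoid response were listed because Nfil3, Noct and Bhlhe40 also respond to feeding and hormones. All 12 were tested and 0 were called by limma (7 had an unadjusted p under 0.05), with a median of -0.67. Lower at all 3 weeks were 6 of 12, as were 11.3% of all genes tested. Among the 6 were G6pc, glucose-6-phosphatase, with -0.55, -1.49 and -1.45, and Sgk1, a glucocorticoid-induced kinase, with a mean of -0.96. Tat, tyrosine aminotransferase, was another, with -0.59, -0.94 and -0.58. Ddit4, a stress-induced inhibitor of mTOR, had -1.01, -2.39 and 0.26, and Pdk4, a kinase that restrains pyruvate oxidation, -1.01, 0.09 and -1.94. Fkbp5 and Tsc22d3, direct targets of the glucocorticoid receptor, had means of 0.19 and -0.12. Most of this list was lower at every week, and so were Nfil3 and Noct, so that match does not set the weeks apart. The list medians were -0.28, -0.67 and -0.59 at weeks 2, 4 and 10. Nfil3 differed most at week 2 (-1.80) and Noct at week 10 (-1.34). The part of the list's response in Nfil3 and Noct was not tested.

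**Figure D4:**
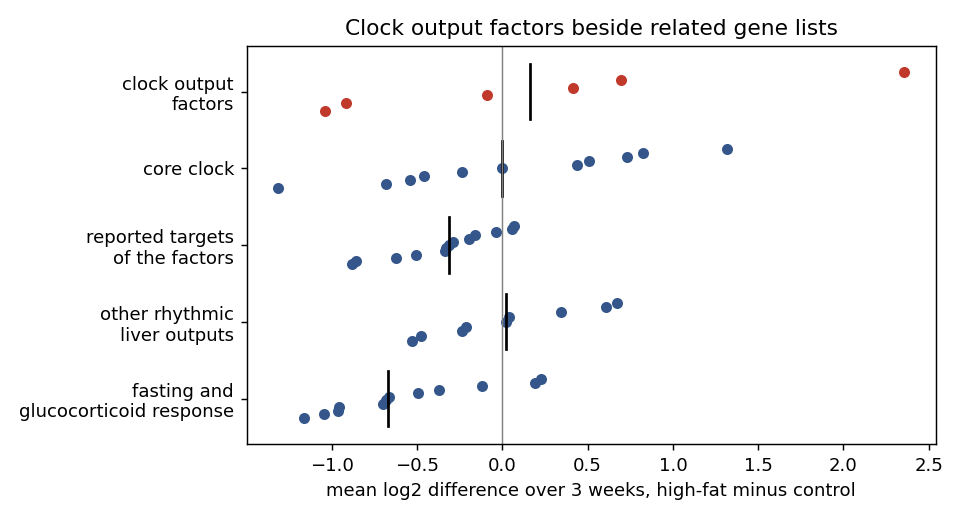
Mean log2 difference over the 3 weeks, high-fat minus control, for each tested gene (points, in order of value within a list) of the clock output factors and of 4 related lists, with vertical bars at each list's median. The clock output factors and the core clock spread to both sides of 0, while the medians of the reported targets and of the fasting and glucocorticoid list lie at -0.31 and -0.67.

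The genes with the pattern closest to Dbp and to Nfil3 were found by the distance between the 3 weekly log2 differences. All 3 differences of Dbp, and of Krt23, are lower bounds with the controls at the floor, so distances to Dbp depend on where the floor was set and are given as a description. Closest to Dbp at this floor were the fatty acid binding protein Fabp5 (distance 1.08), the keratin Krt23 (1.16), the long noncoding RNA Neat1 (1.75) and the serpin Serpina12 (1.85). Fabp5, for example, had 0.86, 1.61 and 3.03, also on its other probe set with 0.54, 1.64 and 3.24. Closest to Nfil3 were Cyp2b10 (0.52), Prxl2c (0.67), Scaf8 (0.68) and Polr3d (0.69), the last partly at the floor. Scaf8 had -1.36, -0.28 and -1.04, but -0.28, 0.05 and -0.31 on another probe set.

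The tissue and array quality were checked last. All 6 hepatocyte markers tested were above the floor on every array, and their summed normalised signal was 189371, 139736 and 270080 on the high-fat and 204045, 251638 and 363653 on the control arrays of weeks 2, 4 and 10. The sum was lower with the high-fat diet at each week, with median log2 differences of -0.06, -0.83 and -0.48, and 0 of the 6 were higher at weeks 4 and 10. Albumin (Alb) had -0.25, -1.03 and -0.51. The part of this in the lower Nfil3 and Noct was not tested. Macrophage markers, 7 of 7 tested, summed to 13307.5 to 19727.2 on the high-fat and 9659.1 to 18562.7 on the control arrays, with medians of -0.20, 0.08 and 0.75 by week. At week 2, where Nfil3 differed most, 1 of the 7 was higher, and Bhlhe40 was higher at week 2 as well as at week 10; the part of macrophages in either was not tested. Lymphocyte markers (4 of 8 tested) had medians of -0.16, 0.38 and 0.40, endothelial markers (5 of 5) -0.31, -0.24 and 0.42, and stellate markers (5 of 5) 0.10, 0.45 and 0.23. None of 4 cholangiocyte markers passed the filter, and 2 were at the floor on every array.

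Of the shared probe sets, 62.0%, 50.4% and 65.8% were above the floor on the high-fat arrays of weeks 2, 4 and 10. On the control arrays it was 64.9%, 51.7% and 65.2%. The floor thus held more probe sets at week 4 than at the other weeks, on both diets. The 3'/5' signal ratio of pyruvate carboxylase, a sign of RNA integrity, was 9.64, 7.78 and 2.39 on the high-fat and 3.82, 4.26 and 4.01 on the control arrays. The same ratio of beta-actin was 1.61, 2.35 and 1.17 on the high-fat and 1.20, 2.15 and 1.73 on the control arrays. For Gapdh it was 1.01, 0.81 and 0.83 on the high-fat and 0.78, 0.82 and 0.91 on the control arrays. The part of RNA integrity in the differences of Dbp, Nfil3 and Noct was not tested. The control array of week 10 stood apart in the spiked-in control bioD, at a normalised signal of 25310 against 3922 to 9140 on the others. Without week 10 the mean log2 difference was at least 1.82 for Dbp, -1.22 for Nfil3 and -0.70 for Noct.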

How the data were processed

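Liver RNA of high-fat and control mice was hybridised to 1 array per diet and week. The values deposited by the authors are linear signal intensity per probe set; the software that summarised probes is not stated in the labels. The values show scaling to a trimmed mean (2% from each end) of 500.0 to 500.2, except 800.3 on the control array of week 2.

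Intensities were put on the log2 scale, arrays were centred on the median of those probe sets that exceed the floor throughout, and values were floored at the pooled 40th percentile (7.28 on the log2 scale). With 64 control probe sets removed, 20380 of those on both designs had 1 symbol, 691 several and 1555 none. The probe set brightest on average before the floor stood for each of 12393 genes, and the 8846 above the floor on at least 3 arrays were tested with limma 3.58.1 in R 4.3.3 (lmFit, eBayes), blocking on week, with adjusted p by Benjamini-Hochberg and a threshold of 0.05. The labels give the weeks. Same-week arrays deviated together (Pearson's r across genes of 0.43, 0.79 and 0.44). These deviations were taken from the mean of the 3 arrays of a diet, and both week 4 arrays are of the larger design. The design thus enters r at every week, so r cannot tell a pairing of the mice by week from it. The p-values set the mean diet difference against its spread between weeks, biological and technical at once. Any change with time on the diet or between the array designs counts in that spread. Variation between animals within a week was not estimated. A single week has no test, and the number of arrays limits the precision. Where the floor holds one diet, the difference is a bound.

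Members, lists and tests were chosen with earlier results of these data known. All members were named, with up to 5 genes per list by absolute mean difference, Arntl, Nr1d1, Per2 and Cyp7a1, and the 4 closest genes to each member with an absolute mean difference of at least 1. Alas1, Nr1i3, Fkbp5, Tsc22d3 and Alb were named after seeing their values. Alternatives tried were uncentred deposited values, quantile normalization, 2 other floors, omitting the filter, averaging a gene's probe sets, omitting the block, dropping single weeks, trend and robust options of eBayes, a fit over all probe sets and another choice of the brightest. The fit was run on simulated data drawn without a floor, which does not cover genes held at the floor, such as Dbp. Promoters are from RefSeq, and figures were drawn with matplotlib 3.10.9.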

Additional observations from a re-analysis of the deposited data

Results flagged for a closer look

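Bhlhe40 had differences of opposite sign at different weeks, with log2 values of 0.81 at week 2, -0.46 at week 4 and 0.88 at week 10. Hlf did so too, with 0.067 at week 2, 0.19 at week 4 and -0.52 at week 10. With 1 array per diet and week these differences between the weeks were not tested.

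The probe set annotated to Noct together with Sgip1 and Cog6 was outside the comparisons. Its log2 differences, high-fat minus control, were 0.36 at week 2 and 0.67 at week 10, with -0.01 at week 4, where the Noct probe set was lower at all 3 weeks.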

How the results depend on the processing

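The number of genes called over the 3 weeks was 1, and it was 7 with the values as deposited, 0 under quantile normalization, at the 60th percentile floor, with no filter and with no week block (no replicate block), 2 with the mean of all probe sets, 2 over all probe sets and 2 with the brightest probe set chosen after the floor. It was 6 to 7 when 1 week was left out. Of the listed related genes 0 were called, against 1 (Arntl) with the values as deposited and 0 to 1 when a week was left out (Nr1d1 without week 4, Ddit4 without week 10).

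Dbp kept its direction in all 13 alternatives. It passed with the values as deposited (limma adjusted p = 2.3e-06), with the mean of both probe sets, with the probe set chosen after the floor and without any 1 week (limma adjusted p from 0.00133 to 0.00432). It did not under quantile normalization (0.565), at the 20th (0.942) or 60th percentile floor (0.935), with no filter (0.932), with no week block (0.9999), on 1418174_at in the fit over all probe sets (0.169) or with trend and robust (0.0627). These p-values of Dbp are a description and not support, and the cause of their change between settings was not tested. Tef, Nfil3, Noct and Bhlhe40 kept the sign of their mean, from 0.33 to 1.02, -1.24 to -0.66, -1.10 to -0.70 and 0.18 to 0.85, and were never called. The mean of Hlf turned to 0.10 with the mean of its probe sets and was -0.23 to 0.13 when 1 week was left out (0.13 without week 10). With values as deposited the median of all genes at week 2 was -0.67, against -0.03, and Nfil3 then had -2.47, Noct -1.26, Tef 0.30, Bhlhe40 0.15 and Hlf -0.60 at week 2. Signals near the floor limit Dbp, whose 60th percentile bound was 1.16.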
